A study of Mus musculus with 4 samples.

Results

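The genes described here are the laminin chains and the integrin subunits of the mouse molar tooth organ. They are all genes of the deposited count tables whose symbol is Lama, Lamb or Lamc with a digit, Itga with a digit or letter suffix, or Itgb with a digit. This gave 37 of 32285 genes, of which 11 are laminin genes (5 alpha, 3 beta and 3 gamma chains) and 26 are integrin genes (18 alpha and 8 beta subunits). The choice was by symbol and used no measured level, but it was made with earlier results of these data known.

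Single-cell RNA sequencing was performed on 4 libraries of molar tooth organs from wild-type C57BL/6J mice, whose genotype the labels give as WTB6. Maxillary and mandibular molars were collected at E15.5, which the labels write as E15, and at P1, for which the protocol gives P0/P1. Each stage and jaw is 1 library made from 6 pooled tooth organs, so there are no replicates, no p-values were formed, and stage or jaw cannot be told apart from the library. The labels give no transgene and no treatment for any group.

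Laminins are secreted trimers of 1 alpha, 1 beta and 1 gamma chain that polymerise into the sheet of a basement membrane. Integrins are pairs of 1 alpha and 1 beta subunit that span the cell membrane and tie laminins, collagens and other matrix proteins to the cytoskeleton. In the tooth a basement membrane separates the enamel epithelium from the dental papilla, and it lies where ameloblasts and odontoblasts face each other as they differentiate.

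UMIs are molecular tags that let each captured RNA be counted once. Barcodes with at least 1000 UMIs numbered 10073 and 6911 in the E15.5 maxillary and mandibular libraries and 17040 and 16810 in the P1 libraries. The P1 libraries shared barcodes, and 6690 of them were dropped from the P1 mandibular library and kept in the P1 maxillary one. In all, 44.5% of the kept P1 maxillary cells carried such a barcode, with a median of 12212 UMIs against 2667 in the other P1 maxillary cells. Their UMIs in the maxillary library, set against those under the same barcode in the mandibular one, had a median log2 ratio of 2.07. Whether these barcodes hold maxillary or mandibular cells cannot be told apart, so P1 maxillary values of the main comparisons are also given without them. They made up 98.9% of the P1 maxillary ameloblasts, 97.4% of the odontoblasts, 98.9% of the papilla cells, 61.0% of all epithelium and 48.8% of all mesenchyme. P1 mandibular values hold none of them.

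After filtering, 7703, 5050, 12652 and 7897 cells remained in the E15.5 maxillary, E15.5 mandibular, P1 maxillary and P1 mandibular libraries, and every list of 4 values below follows this order. Median UMIs per cell were 10265, 12973.5, 4470.5 and 11210. Cells were clustered without the laminin and integrin genes and named from marker genes, with 5.41% to 12.1% of the cells of a library left unnamed. Epithelial markers such as Krt5, Krt14 and Epcam summed to 4807 to 6373 counts per 1000000 UMIs (CPM) in epithelium and to at most 55.9 in mesenchyme, and mesenchymal markers such as Col1a1 and Prrx1 to 389 to 494 in epithelium and 10064 to 18694 in mesenchyme. The dental papilla class rested on weaker markers, which summed to 293 and 336 CPM at P1 against 176 and 159 in the other mesenchyme.

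The level of a gene is the sum of its UMIs in a cell class in CPM of that class. Each transcript is counted once from its 3′ end, so levels were not divided by transcript length. Ranges in brackets are exact 95% intervals, which cover counting error only. A gene was counted as higher or lower when the ratio was at least 2-fold, its interval did not reach equality, the higher class had at least 10 CPM, and the direction was the same in every library compared. Erythroid cells, which should lack most of these genes, served as a rough measure of free RNA. Whether they express some of them, such as Itga4, was not tested. The highest levels there were 93.6 CPM for Itgb1, 60.6 CPM for Lama2 and 39.5 CPM for Lama4 in the P1 maxillary library, followed by 32.1 CPM for Itga4 in the P1 mandibular one. In the 96 P1 maxillary erythroid cells without shared barcodes they were higher, at 217 [171, 272] CPM for Itgb1, 134 [98.6, 178] CPM for Lama2, 106 [74.4, 146] CPM for Lama4, 91.4 [62.5, 129] CPM for Itga8 and 80.0 [53.1, 116] CPM for Itgb5.

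Among the 37 genes, 32 reached 20 CPM in at least 1 class of at least 50 cells in at least 2 libraries. The other 5 were low in all named classes. Itga2b, the platelet alpha subunit, stayed at or below 26.4 CPM, and Itgb7, a leukocyte beta subunit, lower still. Itgad, Itgae and Itgax, which code for leukocyte alpha subunits, had maxima of 1.81, 5.51 and 5.06 CPM.

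The upstream sequences of Lama5 and Lamb3 are shown because these chains mark opposite parts of the P1 enamel epithelium, as described further on. Each is the stretch of 250 bases before the RefSeq transcript start, read 5′ to 3′ on the gene's own strand in build GRCm38.p6, with the GC box letters GGGCGG, searched on both strands, in capitals. The Lama5 stretch is chr2:180225860-180226109 on the minus strand, next to the gene body at chr2:180176373-180225859. The Lamb3 stretch is chr1:193301744-193301993 on the plus strand and lies within the annotated gene (chr1:193207699-193343878), which has starts further upstream.
Lama5: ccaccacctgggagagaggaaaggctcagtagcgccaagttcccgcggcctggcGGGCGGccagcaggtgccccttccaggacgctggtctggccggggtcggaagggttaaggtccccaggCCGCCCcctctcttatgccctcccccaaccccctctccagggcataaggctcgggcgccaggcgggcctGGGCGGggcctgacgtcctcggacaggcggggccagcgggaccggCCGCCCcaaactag
Lamb3: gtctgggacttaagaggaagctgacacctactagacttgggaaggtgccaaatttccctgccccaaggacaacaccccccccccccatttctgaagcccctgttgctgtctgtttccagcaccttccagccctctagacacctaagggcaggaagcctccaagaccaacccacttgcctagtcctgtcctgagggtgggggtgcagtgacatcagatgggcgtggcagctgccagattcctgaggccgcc
The Lama5 window held 4 GC boxes, at 196, 128, 59 and 14 bases before the start, and the Lamb3 window held none. Of 26 windows found for 23 of the genes, 9 held a GC box, against 32.7% of 32851 windows of the same length over all genes. The AP-1 letters TGANTCA occurred in 1 of the 26 windows and in 6.75% of all windows. These are matches of letters and say nothing about which proteins bind there.

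The 32 genes fell into groups by the class in which they were highest among epithelium, mesenchyme, endothelium, pericytes and smooth muscle, Schwann cells and glia, macrophages and muscle. In all 4 libraries 6 were highest in Schwann cells and glia (Lama2, Lama4, Lamb1, Lamc1, Itgb3 and Itgb8), 5 in epithelium (among them Lama5, Lamb3, Itga3 and Itgb4), 4 in macrophages (Itga9, Itgal, Itgam and Itgb2), 3 in pericytes (Itga1, Itga7 and Itgb1), 2 in endothelium (Itga2 and Itga5) and 1 in mesenchyme (Itga11). The highest class differed between libraries for the other 11.

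**Figure D1:**
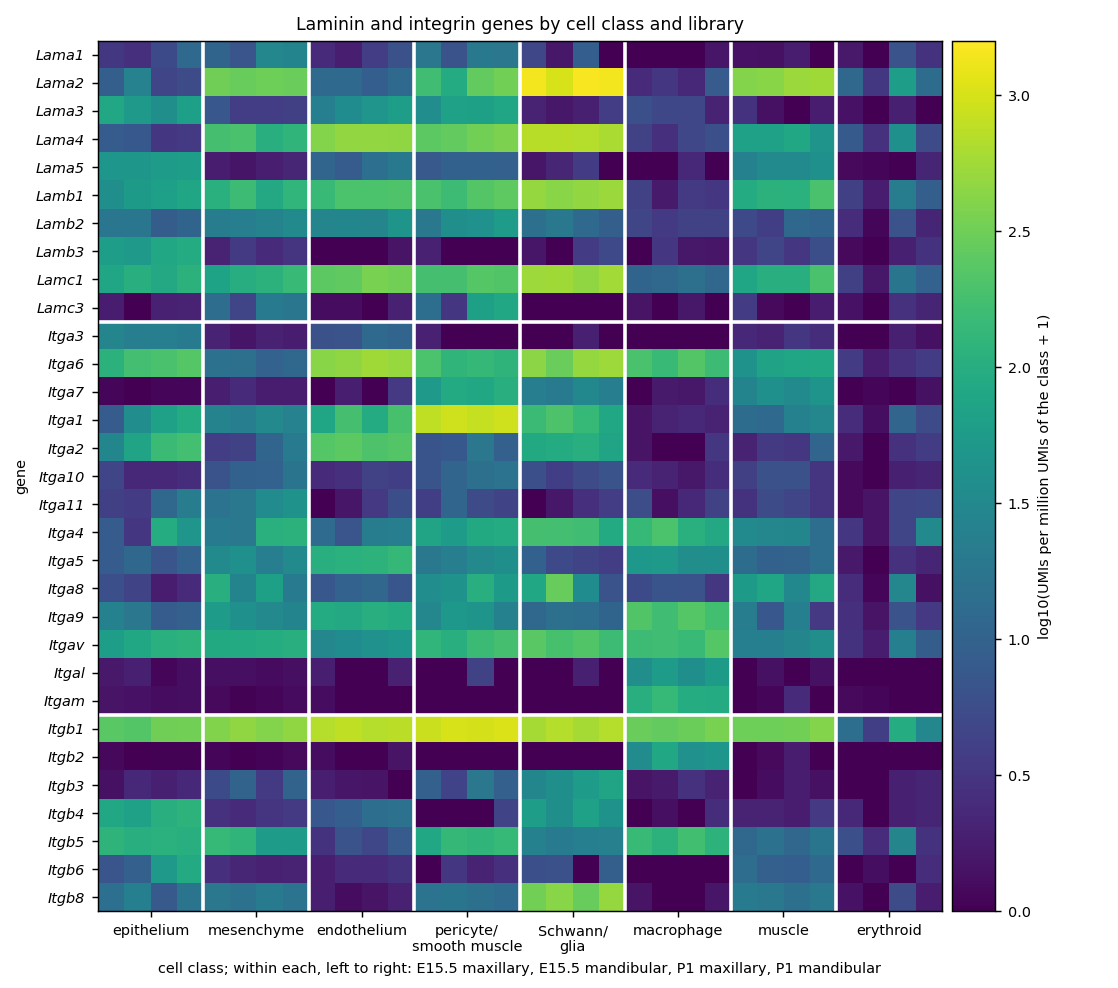
Heat map of log10(CPM + 1) for 31 laminin and integrin genes (rows, from laminins to alpha and beta integrins) in 8 cell classes, each with 4 columns for the E15.5 maxillary, E15.5 mandibular, P1 maxillary and P1 mandibular libraries. Lama3, Lamb3 and Itgb4 are bright in epithelium, Lama2 and Lama4 in Schwann cells, Itga1 in pericytes, and Itgam and Itgb2 in macrophages alone of these 8 classes, while the erythroid columns are dark for most genes.

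The first comparison asked which chains and receptors separate epithelium from mesenchyme. The class was named from general epithelial markers and not limited to tooth and oral cells. It took in 63 E15.5 maxillary cells led by Wfdc18 and 288 P1 maxillary cells led by Reg3g. Epithelium held 684, 94, 1789 and 1535 cells. The 94 E15.5 mandibular cells were 1 cluster with the markers of suprabasal oral epithelium, but its leading genes also included Krt14, Krt5, Krt17 and Krt15. At E15.5, 23 of the 37 genes had enough counts, and 8 were higher and 8 lower in epithelium. Over all genes 8.05% were higher and 11.4% lower. At P1, 10 of 26 genes were higher and 8 lower, against 8.28% and 12.9% of all genes. The median log2 ratio of the genes with enough counts lay between -0.35 and -0.13 in the 4 libraries, with all genes between -0.03 and 0.05, so the set had no common direction.

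Lama3 and Lamb3 code for chains of laminin-332, the laminin of epithelial anchoring. Lamb3 (chr1:193207699-193343878) had 59.0, 51.6, 83.0 and 90.9 CPM in epithelium and 1.10, 2.53, 1.39 and 2.14 CPM in mesenchyme. Its log2 ratio ranged from 4.35 [3.96, 4.75] in the E15.5 mandibular to 5.90 [5.59, 6.23] in the P1 maxillary library. Lama3 had 82.7, 50.8, 38.6 and 63.4 CPM in epithelium and 2.81 to 6.36 CPM in mesenchyme. Both chains were thus at least 10-fold higher in epithelium in every library. Lama3 was also found in pericytes, at 36.6, 67.0, 64.6 and 76.3 CPM, and in endothelium, at 23.3, 35.4, 45.3 and 60.1 CPM.

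Lama5 (chr2:180176373-180225859), the alpha chain of laminin-511 and the main alpha chain of many epithelial basement membranes, had 46.5, 48.1, 55.3 and 60.0 CPM in epithelium and 0.535 to 1.20 CPM in mesenchyme. The P1 maxillary epithelial level was 32.8 [25.9, 40.9] CPM without the shared barcodes. Muscle was the other class with Lama5, at 24.4, 33.0, 33.1 and 39.5 CPM, and the P1 maxillary value was 19.0 CPM from 9 UMIs without the shared barcodes.

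The receptors of these laminins followed the same line. Itga6 and Itgb4 code for the alpha6beta4 integrin of hemidesmosomes. Itgb4 (chr11:115974709-116008412) had 79.9, 65.9, 102 and 115 CPM in epithelium against 1.48 to 2.49 CPM in mesenchyme, with log2 ratios from 5.40 [5.10, 5.71] to 5.61 [5.35, 5.88]. Schwann cells also held Itgb4, at 61.8, 38.8, 67.3 and 41.5 CPM. Itga6 (chr2:71745616-71858416) had 113, 175, 190.2 and 225 CPM in epithelium and 9.01 to 14.6 CPM in mesenchyme, yet endothelium had more of it, at 429.9, 471, 548 and 511 CPM. Itga3 (chr11:95044474-95076801), the alpha subunit of the alpha3beta1 receptor for laminin-332 and laminin-511, had 27.5, 22.3, 22.2 and 19.4 CPM in epithelium and at most 1.05 CPM in mesenchyme. Itga2, a collagen and laminin receptor subunit, was higher in epithelium in every library too, with 28.6, 73.5, 151 and 172 CPM against 2.85, 3.11, 10.04 and 19.7 CPM. Itgb6, the beta subunit of an epithelial receptor, was so at P1, with 51.1 and 90.1 CPM against 0.989 and 1.05 CPM.

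Mesenchyme carried another set of chains. Lama2 (chr10:26980036-27619758), the alpha chain of the laminin of muscle and nerve, had 320.2, 282, 315 and 296 CPM in mesenchyme and 8.29, 25.4, 3.60 and 4.38 CPM in epithelium. Lama4 (chr10:38965515-39110188), the alpha chain of vascular and nerve laminins, had 179, 187, 101 and 125 CPM in mesenchyme and 2.19 to 7.55 CPM in epithelium. The log2 ratios of Lama2, epithelium to mesenchyme, ran from -6.45 [-6.84, -6.09] in the P1 maxillary to -3.47 [-3.88, -3.10] in the E15.5 mandibular library. Lamb1 was lower in epithelium at E15.5, with 37.9 and 53.9 CPM against 106 and 156, and not at P1, with 63.6 and 77.3 CPM against 85.1 and 128. Without the shared barcodes, however, the P1 maxillary log2 ratio of Lamb1 was -1.63 [-1.99, -1.29]. Lamc1, the gamma chain shared by most laminins, was past 2-fold at neither stage, with 77.8, 99.7, 83.4 and 112 CPM in epithelium and 71.5, 97.9, 113 and 140.4 CPM in mesenchyme.

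Of the mesenchymal integrins, Itga8, a receptor subunit for nephronectin, had 99.1, 26.9, 65.5 and 19.98 CPM in mesenchyme and 5.13, 3.56, 0.768 and 1.48 CPM in epithelium. Itga9, a subunit for tenascin and other ligands, had 57.6, 39.4, 31.0 and 26.6 CPM in mesenchyme and 24.3, 17.4, 7.62 and 8.59 CPM in epithelium. Itga5, the alpha subunit of the fibronectin receptor, had 32.7, 39.7, 22.7 and 32.6 CPM in mesenchyme and 5.91 to 10.7 CPM in epithelium. All 3 were thus lower in epithelium in every library, but Itga9 was not past 2-fold in the P1 maxillary library without the shared barcodes, with 38.7 CPM in epithelium against 63.8 CPM and a log2 ratio of -0.72 [-1.05, -0.41]. At E15.5 the collagen receptor subunit Itga11 and the subunit Itga4, which binds fibronectin and Vcam1, were lower too. At P1 the additional genes that were lower in epithelium were Lama1, Lamb2 and Lamc3.

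Many P1 maxillary levels moved when the shared barcodes were left out. In epithelium Lamb3 went to 34.5 CPM, Itgb4 to 56.3 CPM, Itga6 to 93.3 CPM and Lama2 to 10.1 CPM, and in mesenchyme Lama4 went to 194 CPM, Lamc1 to 60.2 CPM and Itga8 to 164 CPM. Even so, the P1 maxillary epithelium kept high Lama5, Lamb3, Itga6 and Itgb4 against mesenchyme, with log2 ratios of 6.58, 4.95, 2.92 and 4.45. Itga1, a collagen and laminin receptor subunit, was higher in P1 epithelium with them (1.08 [0.97, 1.19] maxillary, 1.85 [1.75, 1.96] mandibular), and turned to -0.94 in the maxillary library without them.

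**Figure D2:**
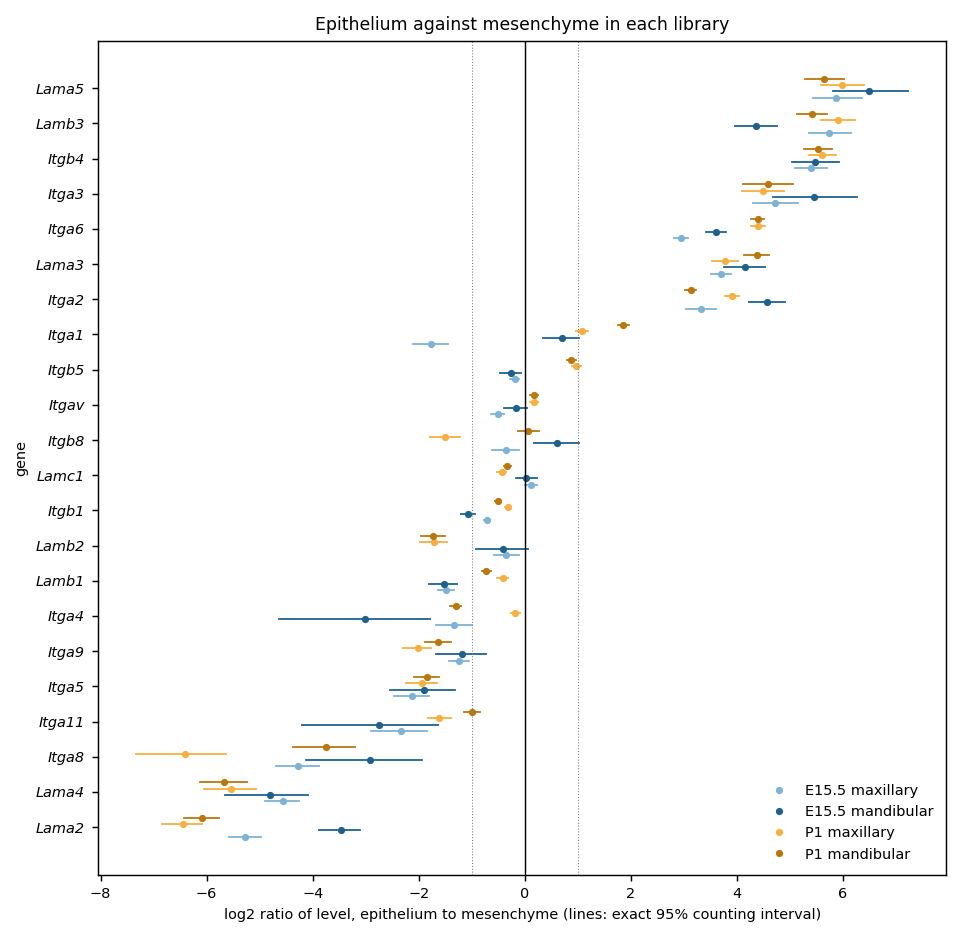
Log2 ratio of level, epithelium to mesenchyme, for 22 genes with at least 10 CPM in either class of all 4 libraries, with points for libraries and lines for exact 95% counting intervals; dotted lines mark 2-fold. Lama5, Lamb3, Lama3, Itgb4 and Itga3 lie far to the right, and Lama2, Lama4 and Itga8 far to the left.

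Partner genes were counted in the same way. The shares of all genes to set beside these counts are 8.05% higher and 11.4% lower at E15.5, and 8.28% and 12.9% at P1. Of 16 basement membrane genes with enough counts at E15.5, 7 were higher and 5 lower in epithelium, and at P1 6 were higher and 3 lower. Those named by rule were Col4a6, Frem2 and Col4a5 as higher and Nid1, Nid2 and Col4a2 as lower at E15.5. Nid1, a nidogen that links laminin to collagen IV, had 4.29 and 3.12 CPM in E15.5 epithelium against 133 and 202 CPM in mesenchyme. Among 7 genes of hemidesmosomes and other laminin receptors, 3 at E15.5 and 4 at P1 were higher in epithelium and none was lower at either stage. Bcam, a receptor for laminin alpha5, had 118, 113, 318 and 307 CPM in epithelium and 2.11 to 5.08 CPM in mesenchyme. Of the 12 other integrin ligands with enough counts, 8 were lower in epithelium at E15.5, and at P1 10 were lower and 1 higher. The last was Mfge8, a ligand of alphav integrins, with 505 and 554 CPM in P1 epithelium against 70.5 and 82.6 CPM in mesenchyme. Of 11 adaptors that link integrins to actin, 1 was higher and 2 were lower in epithelium at E15.5. At P1, 1 of 12 was higher and 3 were lower. Fermt1 was the higher gene at both stages. Fermt2 and Ilk were lower at both, and Tln2 at P1.

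Within P1 epithelium the clusters differed in which of the genes they held. Ameloblasts, which secrete enamel, were 185 maxillary and 429 mandibular cells. Their markers Amelx, Ambn, Enam, Mmp20 and Amtn summed to 37547 and 68813 CPM. Odontoblast markers summed to 2557 and 2744 CPM in these cells, above the 1603 CPM of the maxillary odontoblasts, and the part of this in the results was not tested. Against the rest of the P1 epithelium, 4 of 17 genes were higher and 4 lower in ameloblasts, where 6.83% of all genes were higher and 17.7% lower.

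Lamb3 had 169 and 189.8 CPM in ameloblasts and 67.2 and 42.4 CPM in the rest of the epithelium, a log2 ratio of 1.33 [1.16, 1.49] and 2.16 [2.01, 2.32]. Itgb4 had 202 and 208 CPM in ameloblasts against 83.5 and 69.2 CPM. The mandibular rest did not hold an unnamed cluster of 281 cells led by Stmn2 and Frem2, whose best match was epithelium. That cluster had Itgb4 at 227 [212, 244] CPM, above the ameloblasts, and the effect of leaving it out was not tested. Itgb6 (chr2:60598292-60722643), the beta subunit of the epithelial alphavbeta6 integrin, whose loss in mice leaves enamel poorly mineralised, had 145 and 200.3 CPM against 33.9 and 36.1 CPM. Itga11 was the lowest of the higher genes, with 23.6 and 44.5 CPM against 8.95 and 10.2 CPM.

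The laminin-511 chains went the other way. Lama5 had 10.6 and 10.5 CPM in ameloblasts and 63.5 and 84.3 CPM in the other epithelium, with log2 ratios of -2.58 [-3.17, -2.04] and -3.01 [-3.40, -2.64]. Lamc1 had 18.6 and 22.9 CPM against 95.3 and 155 CPM, and Lamb1 had 27.4 and 26.8 CPM against 70.3 and 102 CPM. Itga1 was at 2.28 and 2.83 CPM in ameloblasts and 77.6 and 134 CPM elsewhere. The 3 chains of laminin-511 were therefore low in the same cells in which Lamb3 was highest. Lama3, which codes for a partner chain of Lamb3, had 42.6 CPM in the maxillary and 115 CPM in the mandibular ameloblasts.

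Clusters led by Odam and Mindy4, of 365 maxillary and 323 mandibular cells, held the opposite set. Lama5 was at 114 [104, 124] and 140.1 [129.8, 151] CPM there, Lamc1 at 211 and 278 CPM, and Lamb1 at 144 and 158 CPM. The collagen receptor subunits Itga1, at 229 and 172 CPM, and Itga2, at 324 and 224 CPM, were also high, whereas Itga4 was at 20.6 and 5.32 CPM and Lamb3 at 35.2 and 38.9 CPM. A mandibular cluster of 216 cells led by Jph4 and Enpp2 had Itga1 at 216 CPM and Itga2 at 319 CPM with less Lama5 (56.9 CPM) and Itgb6 at 86.5 CPM. A last mandibular cluster, of 346 cells led by Mindy4 and Gm42418 with a median of 1639 UMIs, had low values throughout, such as Lama5 at 6.75 CPM and Itgb4 at 13.5 CPM.

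A maxillary cluster of 373 cells led by Vwde and Igfbpl1 shared part of the ameloblast set. It had Itga4 at 208 [195, 220.4] CPM, Lamb3 at 124 CPM, Itgb4 at 133 CPM and Itga1 within [3.27, 7.33] CPM, but Lama5 at 51.7 CPM. The mandibular cluster of 138 cells led by Fgf9 and Vwde had Itga4 at 104 CPM, Lamb3 at 119.9 CPM, Itgb4 at 91.4 CPM and Itga1 at 6.99 CPM. In the maxillary library 96.8% of the Vwde-led cells and 88.5% of the Odam-led cells carried shared barcodes, so these clusters have no maxillary value free of them. Clusters were formed without the laminin and integrin genes, and these differences are between clusters of 1 library, not between replicates.

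Itga4 is given here with its erythroid level. In P1 ameloblasts it had 147 and 79.8 CPM, and erythroid cells of the same libraries had 3.67 and 32.1 CPM. The mandibular Odam-led cells, at 5.32 CPM, lay below that erythroid level. How much of the erythroid Itga4 was free RNA was not tested.

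Suprabasal oral epithelium, the layers above the basal one, had 200 and 57 cells at P1. Of 19 genes 2 were higher and 6 lower there than in the rest of the P1 epithelium, against 6.22% and 10.2% of all genes. Lamb2, the beta chain of synaptic and kidney laminins, had 15.9 and 26.0 CPM against 6.997 and 8.83 CPM, and Itga2b had 26.4 and 18.9 CPM against 1.77 and 2.75 CPM. The 6 lower genes were Lamb1, Itga1, Itga2, Itga4, Itga11 and Itgb6, the last with 8.58 and 8.26 CPM against 55.7 and 94.1 CPM.

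**Figure D3:**
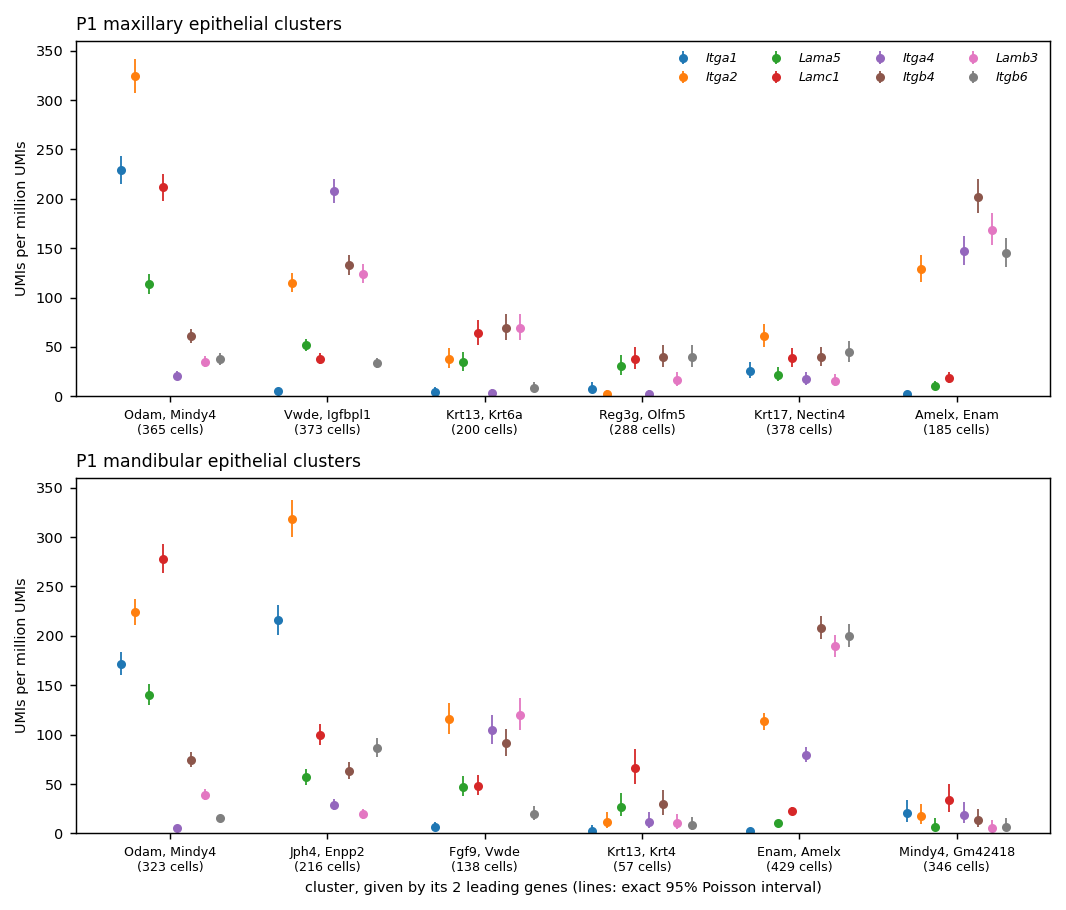
CPM of 8 genes in each P1 epithelial cluster of at least 50 cells, maxillary above and mandibular below, with clusters given by their 2 leading genes and ordered by Lama5; lines are exact 95% Poisson intervals. Itga1, Itga2, Lamc1 and Lama5 are high in the Odam-led clusters at the left, and Itgb4, Lamb3 and Itgb6 in the ameloblasts.

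P1 was then compared with E15.5 within each jaw. In epithelium 5 of 20 genes were higher and 1 lower at P1, against 5.13% and 3.74% of all genes. The cells compared were not of the same make-up. Unlike that single E15.5 mandibular cluster, the E15.5 maxillary epithelium held 684 cells in clusters led by Krt15 and Col17a1, by Krt17 and Shh, by Krt13 and by Wfdc18, and ameloblasts were found at P1 only. A change in a cell and a change in the mix of cells cannot be told apart here.

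Itgb6 had 6.06 and 8.46 CPM in the E15.5 and 51.1 and 90.1 CPM in the P1 epithelium, with log2 ratios of 3.08 [2.71, 3.46] and 3.41 [2.77, 4.15]. Itga4 (chr2:79255426-79333123) went from 7.55 and 2.23 CPM to 94.3 and 45.2 CPM. Itga1 (chr13:114953096-115101964) rose from 7.55 and 36.1 CPM to 65.9 and 90.8 CPM, and its neighbour Itga2 (chr13:114833081-114932100), which codes for another collagen receptor subunit, from 28.6 and 73.5 CPM to 151 and 172 CPM. Itga11 went from 3.08 and 2.67 CPM to 11.2 and 21.5 CPM. Each P1 value lay above both E15.5 values. Itga9 was the gene that was lower, from 24.3 and 17.4 CPM to 7.62 and 8.59 CPM, with 118 CPM in the Wfdc18-led E15.5 maxillary cluster of 63 cells and 1.09 CPM in the Krt15-led one.

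The maxillary values of this comparison rested on the shared barcodes. In the 697 P1 maxillary epithelial cells without them, Itgb6 had 23.1 [17.4, 30.1] CPM and Itga1 16.8 [12.0, 22.9] CPM. Both were still above the E15.5 maxillary level, but Itga1 was below the E15.5 mandibular one. Itga4 had 9.25 [5.79, 14.0] CPM, Itga2 29.0 [22.6, 36.7] CPM and Itga11 3.36 [1.45, 6.63] CPM, close to the E15.5 maxillary values of 7.55, 28.6 and 3.08 CPM. Itga9 was at 38.7 [31.2, 47.4] CPM, above E15.5 rather than below. The cells left out were 98.9% of the ameloblasts, 96.8% of the Vwde-led cells and 88.5% of the Odam-led cells. Of the Reg3g-led cluster of 288 cells, whose Itga9 level is given under other observations, 0.7% were left out. The remaining cells thus had another make-up, and its part in these values was not tested. Without the shared barcodes 2 genes (Itgb6 and Itga1) were higher in both jaws and none was lower. The P1 mandibular epithelium has none of these barcodes, and all 6 genes were past 2-fold in it. The mandibular log2 ratio of Itga9, -1.02, was at the limit, and became -0.99 in cells with at least 2000 UMIs.

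In mesenchyme 4 of 19 genes were higher and 1 lower at P1, against 4.53% and 1.38% of all genes. Itga4 went from 19.0 and 17.96 CPM to 106 and 111 CPM, by log2 ratios of 2.49 [2.39, 2.59] and 2.63 [2.52, 2.75]. The P1 mandibular mesenchyme did not hold an unnamed Fabp7-led cluster of 368 cells. That cluster's best match was mesenchyme, and it had Itga4 at 398 CPM. Lama1 (chr17:67697259-67822647), the alpha chain of the embryonic laminin-111, went from 9.64 and 6.05 CPM to 28.9 and 26.9 CPM. Itga11 (chr9:62677826-62783982) had 15.6 and 18.1 CPM and then 34.3 and 42.7 CPM, and Itga2 had 2.85 and 3.11 CPM and then 10.0 and 19.7 CPM. The gene that was lower was Itgb5, a partner of the alphav subunit, which went from 137 and 123 CPM to 55.8 and 55.7 CPM.

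None of these 5 mesenchymal changes was past 2-fold in the P1 maxillary cells without shared barcodes. In those 4054 cells Itga4 had 12.9 [11.0, 15.2] CPM, a log2 ratio of -0.55 to E15.5, Lama1 14.1 CPM, Itga11 17.0 CPM, Itga2 3.26 CPM and Itgb5 128 CPM. The odontoblasts and papilla cells of that library were nearly all among the cells taken out. With every cell thinned to 2000 UMIs, Itga4 and Lama1 stayed past 2-fold in both jaws, at 1.63 and 2.57 for Itga4, and Itgb5 was at -0.77 and -0.95.

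Few of the genes passed the same limits in the other classes. None of 18 genes did in endothelium, where 1.67% of all genes did in either direction, none of 16 in muscle (2.7% of all) and none of 11 in macrophages (1.18%). In pericytes Lamc3, a gamma chain, was the 1 of 20 genes that was higher at P1 (2.14% of all genes), with 13.5 [7.37, 22.6] and 2.23 [0.270, 8.07] CPM at first and then 65.7 and 81.5 CPM. Without the shared barcodes the P1 maxillary value was 7.52 [0.911, 27.2] CPM from 2 UMIs. In Schwann cells Itga8 was the 1 of 18 genes that was lower (0.32% of all), from 82.7 and 288 CPM down to 35.4 and 5.53 CPM. The last value came from 65 cells with 723494 UMIs over all genes. In the P1 maxillary cells without shared barcodes Itga8 was at 17.8 CPM, from 15 UMIs.

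**Figure D4:**
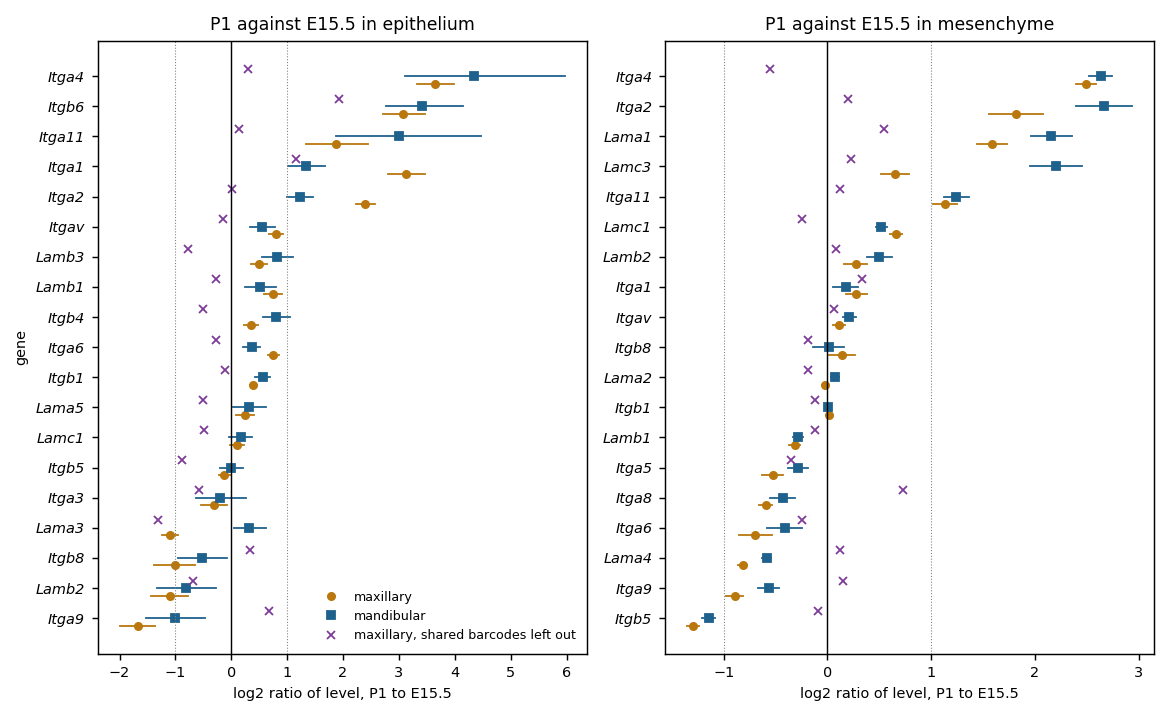
Log2 ratio of level, P1 to E15.5, in epithelium (left) and mesenchyme (right) for genes with at least 10 CPM at either stage in both jaws; points are jaws, lines exact 95% counting intervals, and crosses the maxillary value without shared barcodes. In mesenchyme the Itga4 points lie at 2.49 and 2.63 and its cross at -0.55.

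Within P1 mesenchyme the odontoblasts, which make dentin, numbered 273 and 144 cells. Their markers (Dspp, Dmp1, Phex, Nes, Sost and Wnt10a) summed to 1603 and 5571 CPM against 52.9 and 67.5 CPM in the other mesenchyme. The osteoblast markers also summed to 2337 and 6175 CPM in them. Bglap and Bglap2, which are osteoblast markers, were among the 10 leading genes of the odontoblasts in both libraries, next to Dmp1 and Phex. The maxillary cluster was also led by Ifitm5, Sgms2, Mamdc2 and Col24a1, which in the mandible led an osteoblast cluster of 174 cells, and the maxillary library had no osteoblast class. The part of this in the results was not tested. Of 19 genes 3 were higher and 6 lower in odontoblasts than in the rest of the mesenchyme, against 6.44% and 18.1% of all genes. All 3 higher genes code for collagen receptor subunits. Itga2 had 75.9 and 143 CPM in odontoblasts and 3.69 and 12.6 CPM in the rest, log2 ratios of 4.36 [4.12, 4.61] and 3.51 [3.32, 3.68]. Itga11 had 81.7 and 122 CPM against 29.7 and 38.2 CPM. Itga10 (chr3:96645584-96664519), best known from cartilage, had 23.4 and 47.0 CPM against 7.89 and 14.3 CPM. The fourth collagen receptor subunit, Itga1, was lower, with 5.26 and 2.74 CPM against 33.7 and 26.4 CPM.

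Itga8 was at 1 UMI in the odontoblasts of each library, 0.182 and 0.343 CPM, against 71.8 and 21.1 CPM in the rest. Lama4 had 19.6 and 23.7 CPM against 109 and 131 CPM, Itgb5 8.89 and 7.89 CPM against 60.3 and 58.4 CPM, Itga9 9.62 and 1.71 CPM against 33.0 and 28.0 CPM, and Lamb2 5.81 and 12.0 CPM against 27.8 and 33.0 CPM. Osteoblasts, the bone-forming cells, also held Itga11, at 85.2 [74.7, 96.9] CPM in the E15.5 and 72.4 [65.0, 80.5] CPM in the P1 mandibular library. Tendon and ligament cells held Itga10 in the mandible, at 25.9 and 49.9 CPM, and little in the maxilla, at 5.21 and 6.27 CPM.

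The dental papilla class, the loose mesenchyme under the odontoblasts, had 825 and 454 cells at P1, and 1 of 19 genes was higher and 5 were lower in it than in the rest, where 0.49% of all genes were higher and 4.96% lower. Itga4 was the higher gene, with 298 [288, 308] and 292 [278, 305] CPM against 60.9 and 88.5 CPM. The mandibular values of both sides leave out the unnamed Fabp7-led cluster, whose leading genes Grm8, Stbd1 and Enpp6 also led the maxillary papilla cluster. The effect on this comparison was not tested. The 274 papilla cells of the E15.5 maxillary library had 19.0 [14.2, 24.9] CPM, the level of all mesenchyme there. Lama1 was at 37.0 and 64.4 CPM in P1 and 20.1 CPM in E15.5 maxillary papilla cells. Lower in the P1 papilla were Lama4, Itga2, Itga8, Itga9 and Itgb5, and of these all but Itga2 were lower in odontoblasts too.

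**Figure D5:**
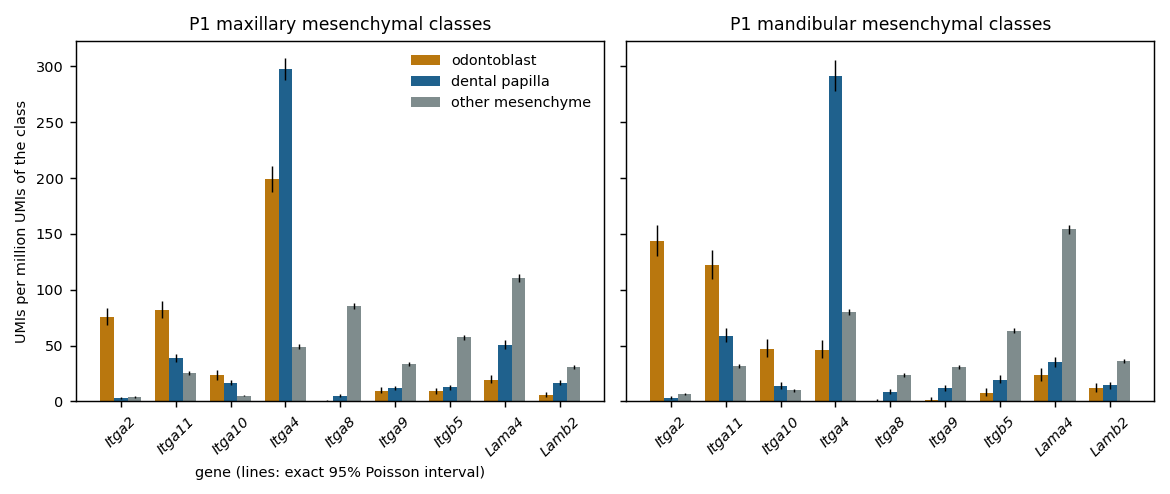
CPM of 9 genes in odontoblasts, dental papilla and other mesenchyme of the P1 maxillary (left) and P1 mandibular (right) libraries; bars start at 0 and lines are exact 95% Poisson intervals. Itga2, Itga11 and Itga10 are highest in odontoblasts, and Itga4 in the papilla, while Itga4 in odontoblasts is high in the maxillary bars alone.

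Jaws were compared within each stage. The mesenchyme was not of the same make-up in both jaws. The P1 maxillary mesenchyme held 1240 cells led by Alx1 and Pax3, 0.5% of them with shared barcodes. It also held 520 chondrocytes, a class not named in the P1 mandibular library. A difference in a cell and a difference in the mix of cells cannot be told apart here. In mesenchyme Itga8 (chr2:12106632-12301922) was the 1 of 17 genes that was higher in the maxilla, and none was higher in the mandible, against 0.644% and 0.73% of all genes. It had 99.1 [96.4, 102] CPM in the maxillary and 26.9 [25.4, 28.6] CPM in the mandibular library at E15.5, and 65.5 [63.5, 67.5] against 19.98 [18.8, 21.2] CPM at P1. The log2 ratios were 1.88 [1.79, 1.97] and 1.71 [1.62, 1.81], and the P1 ratio was 3.04 without the shared barcodes, where the maxillary level was 164 CPM and the erythroid cells with the same kind of barcode had Itga8 at 91.4 [62.5, 129] CPM, from 32 UMIs. In Schwann cells the E15.5 order was the other way, with 82.7 CPM in the maxilla and 288 CPM in the mandible. In muscle Itga9 was the 1 of 17 genes past the limits (0.964% of all were higher in the maxilla), with 21.0 and 22.8 CPM in the maxilla and 6.33 and 2.44 CPM in the mandible, the last from 6 UMIs. None of the laminin and integrin genes passed in endothelium, pericytes, Schwann cells, macrophages or epithelium, where 0.378%, 0.538%, 0.678%, 0.352% and 0.499% of all genes did in either direction.

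The other classes were set against mesenchyme in all 4 libraries. In Schwann cells and glia, which wrap nerve fibres and lie on a basement membrane of their own, 11 of 20 genes were higher and 4 lower, against 6.64% and 7.03% of all genes. The median log2 ratio of these 20 genes was 2.16, 1.99, 2.11 and 1.78, with all genes between -0.03 and 0.03. Lama2 had 1382, 1002, 1472 and 1389 CPM there, the highest level of any laminin gene in these 7 classes, and Lama4 had 724, 725, 704 and 619 CPM. Lamb1 had 493, 428, 476 and 521 CPM, and Lamc1 had 536, 558, 471 and 571 CPM. With Lama2 they make up the chains of laminin-211, the laminin of peripheral nerve. Itgb8, a beta subunit that pairs with alphav, had 331, 430.3, 282 and 488 CPM in Schwann cells and 15.2 to 19.3 CPM in mesenchyme. Itga6 had 435, 296, 488 and 536 CPM. The others that were higher were Itga1, Itga2, Itga7, Itgb3 and Itgb4, and Itga5, Itga9, Itga11 and Itgb5 were lower.

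In endothelium, the lining of blood vessels, 7 of 18 genes were higher and 6 lower, against 8.93% and 11.6% of all genes. Lama4 had 402, 475, 481 and 459 CPM, and Lamc1 had 248, 264, 358 and 325 CPM. Itga2 had 225, 246, 204 and 223 CPM, between 3.501 and 6.30 on the log2 scale above mesenchyme. Itga5 (chr15:103344286-103366763) had 103, 109, 116 and 136 CPM. Itga6, Itga1 and Lama3 were higher as well. Lama2, at 8.02 to 11.5 CPM, and Itgb5, Itgb8, Itgav, Itga8 and Itga11 were lower.

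Pericytes and smooth muscle cells, which coat vessels, had 5 of 18 genes higher and none lower, against 4.27% and 4.71% of all genes. Itga1 had 785, 919, 822 and 928 CPM, the highest level of any alpha subunit in these 7 classes and over 4-fold above the next class in each library. Itgb1 (chr8:128685654-128733200), the beta subunit shared by most matrix receptors, had 885, 1003, 989 and 1069 CPM. It was found in every class, with 219.9 to 325 CPM in epithelium and 396 to 464 CPM in mesenchyme. Itga7 (chr10:128933818-128958282), a laminin receptor subunit of muscle, had 52.0, 90.4, 79.9 and 102 CPM in pericytes and 26.8, 38.9, 31.6 and 44.0 CPM in skeletal muscle cells. Lama3 and Itga6 completed the 5.

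In muscle 3 of 18 genes were higher (Lama5, Itga6 and Itga7) and 5 lower (Lamb2, Itga5, Itga11, Itgav and Itgb5), against 3.62% and 12.9% of all genes. Lama2 had 407, 424, 526 and 554 CPM in muscle, less than 2-fold above mesenchyme in all 4 libraries.

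Macrophages had 5 of 19 genes higher and 9 lower, against 13.4% and 20.4% of all genes. The higher genes were the leukocyte subunits Itgal, Itgam and Itgb2 with Itga9 and Itga6. Itgam had 101, 138, 93.9 and 93.3 CPM, and Itgb2 had 34.3, 83.1, 40.7 and 46.9 CPM. The E15.5 mandibular macrophages, with the highest values of both, included 197 cells led by Lyz2, S100a9 and S100a8, while S100a9-led or S100a8-led cells of the other libraries stayed unnamed. Itga9 (chr9:118606690-118901003) had 216, 163, 226 and 171 CPM, its highest level among the 7 classes. The 9 lower genes were the laminin chains Lama2, Lama4, Lamb1, Lamb2 and Lamc1 and the integrin subunits Itga1, Itga8, Itga11 and Itgb8. Osteoclasts, which were named at E15.5 only, had Itgav, the alpha subunit of the alphavbeta3 integrin of bone resorption, at 355 [320.2, 392] and 661 [599.7, 726] CPM, from 92 and 22 cells.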

How the data were processed

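Molar tooth organs were dissociated, captured with a 10x Chromium 3′ kit and sequenced. The authors deposited raw UMI counts per gene and barcode for each library, made with Cell Ranger 7.0.1 on mm10 per the file headers and the submitters' processing notes, and no normalization had been applied. Total counts were 109723360, 86659227, 128812956 and 139873101 UMIs for the E15.5 maxillary, E15.5 mandibular, P1 maxillary and P1 mandibular libraries.

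Barcodes with at least 1000 UMIs were kept, and 6690 barcodes shared with the P1 maxillary library were dropped from the P1 mandibular one. Cells over 3 median absolute deviations above the median percentage of mitochondrial UMIs or away from the median number of genes, or with under 200 genes, were removed. Scrublet (scanpy 1.11.5) stood in for scDblFinder, and the barcodes with the highest doublet scores were taken out at a rate of 0.8% per 1000 barcodes, 812, 382, 2323 and 819 in number. Each library was clustered alone, on 2000 variable genes without the laminin and integrin genes, 40 components, 15 neighbours and Leiden resolution 1 (leidenalg 0.10.2).

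Clusters were named from marker lists with thresholds set after the clusters were seen. A cluster with 3 or more markers of its best class stayed unnamed when its leading genes were markers of another class. The members and lists were chosen with earlier results of these data known. Members were named with values when they reached 20 CPM in a class of at least 50 cells in at least 2 libraries, and up to 3 partner genes per direction by the smaller of their log2 ratios. Poisson and binomial intervals at 95% came from scipy 1.17.1, and a count of 0 entered a ratio as 3 counts. The fold limit was checked on Poisson counts simulated at the levels of epithelium and mesenchyme. These held no variation between cells or libraries, so the check covers counting error only. Alternatives changed the barcodes kept, the UMI floor, the depth per cell, the handling of shared barcodes, the cluster resolution, the naming, the weight of cells, the total and the fold. Positions are from GENCODE on GRCm38 and upstream sequences from RefSeq on GRCm38.p6. Protein sequences were not used here. Values of 1 gene, which enters the counts, are not reported here.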

Additional observations from a re-analysis of the deposited data

Results flagged for a closer look

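Itga4 in odontoblasts went in opposite directions in the P1 libraries. Against the rest of the mesenchyme its log2 ratio was 1.03 in maxillary and -1.31 in mandibular cells, with levels of 199 [187, 211] and 46.3 [38.8, 54.8] CPM. The difference between jaws was not tested, and 97.4% of the maxillary odontoblasts carried barcodes shared with the mandibular library, whose part in the difference was not tested. The maxillary cluster shared the leading genes Ifitm5, Sgms2, Mamdc2 and Col24a1 with a mandibular osteoblast cluster, and the part of this was not tested either.

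Clusters left without a name held several genes above every named class of their library. In the S100a9-led cluster of 145 E15.5 maxillary cells, Itga4 was at 278 CPM (179 in Schwann cells, the highest named class), Itgal at 179 CPM, Itgam at 309.7 CPM and Itgb2 at 171 CPM, against 37.1, 101 and 34.3 CPM in macrophages, and Itgb7 was at 50.1 CPM. The S100a9-led cluster of 201 P1 mandibular cells had Itgal at 229 CPM, Itgam at 679 CPM and Itgb2 at 268 CPM. The S100a8-led cluster of 161 P1 maxillary cells had Itgal at 145 CPM, Itgam at 199.5 CPM, Itgb2 at 113 CPM, Itgb7 at 73.5 CPM, Itga2b at 86.1 CPM and Itgb3 at 132 CPM. In the Fabp7-led cluster of 368 P1 mandibular cells Itga4 was at 398 [382, 415] CPM, above the 292 CPM of the papilla. The best match of these cells was mesenchyme, but they are in neither the mandibular papilla nor the mandibular mesenchyme. Their leading genes Grm8, Stbd1 and Enpp6 also led the maxillary papilla cluster.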

How the results depend on the processing

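Of 5265 log2 ratios recomputed under the alternatives, 4390 stayed within the counting interval of the value reported, 868 moved outside it without a called value changing direction, and 7 turned. The 4390 include ratios that could not move. The settings for shared barcodes and for the rule on leading genes changed no E15.5 cells, so ratios within E15.5 were fixed in advance there. Leiden resolution 2.0, naming each cell by its own markers, and naming clusters without the rule on leading genes (the last chosen after seeing the data) left all 10 counts of genes within 1.5 times.

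With the shared barcodes left out of both P1 libraries, the genes higher at P1 in epithelium went from 5 to 2 and those lower from 1 to 0, and in mesenchyme the counts went from 4 to 0 and from 1 to 0. In the same maxillary cells, against mesenchyme, the P1 epithelial log2 ratio of Itga1 turned to -0.94 and that of Itgb8 to 0.17. Between stages, Itga9 and Itgb8 in epithelium turned to 0.67 and 0.33, Itga4 in mesenchyme to -0.55 and Lamc3 in pericytes to -0.84. With cells thinned to 2000 UMIs, the genes higher in mesenchyme than epithelium at E15.5 went from 8 to 5, those higher at P1 in mesenchyme from 4 to 2, those lower at P1 from 1 to 0 in both epithelium and mesenchyme, those higher in mandibular mesenchyme from 0 to 1, and the stage log2 ratio of Itgb8 in maxillary epithelium turned to 0.24. With the mean over cells, those higher at P1 in mesenchyme went from 4 to 2, those lower from 1 to 0 in both classes, and those higher in mandibular mesenchyme from 0 to 1. The 1 gene lower at P1 in epithelium became 0 with at least 2000 UMIs and with the rule's barcodes alone without further filters. It became 2 with shared barcodes kept in the P1 mandibular library, with a total without mitochondrial, ribosomal and hemoglobin genes, and at 1.5-fold. That total also gave 1 gene higher in mandibular mesenchyme in place of 0, and 1.5-fold gave 2 lower at P1 in mesenchyme in place of 1. The cause was not tested, other than that leaving out barcodes or thinning leaves fewer UMIs. No paired analysis was possible because each group has 1 library. Of the classes compared with all barcodes, P1 mandibular pericytes had the fewest UMIs, 576357 in 68 cells.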

Other observations

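A P1 mandibular cluster of 281 cells was led by Stmn2 and Frem2. Its best match was epithelium, and it stayed unnamed because Stmn2 is on the neuron marker list. It had Itga4 at 298 [280.4, 316] CPM, Itgb4 at 227 [212, 244] CPM, Lamb3 at 160.0 [147, 174] CPM and Itga6 at 283 [266, 301] CPM, with Itga1 at 4.98 CPM. Wfdc18-led epithelium had Itga9 at 118 [101, 137] CPM in the 63 E15.5 maxillary cells and 33.5 [17.9, 57.4] CPM in 26 P1 mandibular cells. A Reg3g-led cluster of 288 P1 maxillary cells, 0.7% of them with shared barcodes, had 69.2 [55.6, 85.1] CPM.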
